A study of Homo sapiens with 6 samples.

Results

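Amino acid transporters carry amino acids across the plasma membrane or out of the lysosome, and 10 genes that encode them were followed in MDA-MB-231 cells treated with a phosphodiesterase inhibitor. The genes were SLC7A5, SLC3A2, SLC7A6, SLC1A5, SLC1A4, SLC1A3, SLC38A1, SLC38A2, SLC7A1 and SLC36A1, taken as a named list of transporters of essential and non-essential amino acids. All 10 were found among the 15651 genes of the deposited expression table, and all 10 passed the filter on low values, which 15246 genes passed. MDA-MB-231 is an established human triple-negative breast cancer cell line. The cells were either treated with DMSO, the vehicle (3 libraries), or with BRL-50481, an inhibitor of the cAMP phosphodiesterase PDE7A (3 libraries), and no other agent or genetic change is named for either group. For BRL-50481 the labels give 50 μM for 72 h in the treatment protocol and 5 μM for 48 h in the sample tag, and the study's figure legends for these data name the first. Each library gave the expression of every gene as a normalized count, the read count divided by a size factor of that library. The labels number the libraries of a group as replicates, and the study describes them as biological replicates.

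Large neutral amino acids such as leucine enter cells through an exchanger made of a pair of proteins, a light chain that forms the transport path and the heavy chain SLC3A2 that brings it to the cell surface. The exchanger gives out glutamine, which is taken up by sodium-dependent carriers such as SLC1A5 and the SLC38 family. Inside the cell, leucine and arginine are sensed at the lysosome by proteins that switch on the kinase complex mTORC1, and a shortage of amino acids raises the transcription factor ATF4, which binds the C/EBP-ATF response element of transporter and biosynthesis genes. MYC, which binds E-boxes, is also known to act on several transporter genes of tumour cells.

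The letters of these elements were sought in the promoters of the 10 transporters, and the matches are shown first because they are the sequences by which the genes can be compared. The promoter windows were those of RefSeq on GRCh38.p14, 300 bases each, with 250 bases before an annotated transcription start, and the 10 genes had 19 of them. The response element was searched as TGATGNAA on both strands. It was present in 6 of the 19 windows (31.6%), against 3.62% of all 35116 RefSeq windows, and the 6 windows belonged to 6 different genes. In SLC1A4 and SLC7A1 the window was that of the start of the canonical transcript, and in the other four that of an alternative start. The stretches printed are 30 bases on the strand of the gene, with the match in capitals. In SLC3A2 and SLC1A4 the capitals are the reverse complement of the letters searched.
SLC1A4, chr2:64989381-64989410: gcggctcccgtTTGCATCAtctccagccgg
SLC7A1, chr13:29595663-29595692: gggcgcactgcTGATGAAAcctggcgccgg
SLC3A2, chr11:62881719-62881748: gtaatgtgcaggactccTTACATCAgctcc
SLC1A5, chr19:46784893-46784922: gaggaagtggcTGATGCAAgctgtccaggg
SLC38A1, chr12:46266502-46266531: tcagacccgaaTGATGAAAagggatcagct
SLC1A3, chr5:36596357-36596386: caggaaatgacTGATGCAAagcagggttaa

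The E-box CACGTG was found in 3 of the 19 windows (15.8%), against 7.26% of all windows. Those of SLC7A5 and SLC36A1 were at the canonical start and that of SLC1A5 at an alternative start. The window of SLC36A1 held a pair of them, 43 and 8 bases before the start.
SLC7A5, chr16:87869620-87869649: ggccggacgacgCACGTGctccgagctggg
SLC1A5, chr19:46787326-46787355: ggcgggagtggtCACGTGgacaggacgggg
SLC36A1, chr5:151447548-151447577: cgctcaagggagCACGTGacctcggcctct
SLC36A1, chr5:151447583-151447612: gggcggtgggatCACGTGatgaggtccgga
The full cAMP response element TGACGTCA was in 0 of the 19 windows, against 1.85% of all windows. Its core TGACG, which the full element also holds, was in 6 (31.6%), against 24.6% of all windows. These matches describe letters and do not show that a factor binds there.

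Relative to the other genes of a library, most of the 10 transporters had lower mRNA levels under BRL-50481. By limma on log2(normalized count + 1), with Benjamini-Hochberg adjustment over all genes tested and an adjusted p under 0.05 as the call, 7 fell (SLC3A2, SLC1A5, SLC7A6, SLC38A2, SLC7A1, SLC1A4 and SLC7A5), 1 rose (SLC1A3) and 2 were not called (SLC38A1 and SLC36A1). Of all genes tested, 29.8% were called lower and 28.9% higher. The 2 groups were free of overlap for 8 of the 10, against 64.2% of all genes. The median log2 fold change was −0.25 over the 10 transporters and 0.01 over all genes. Together the 10 genes took 0.470% ± 0.0122 of all normalized counts under DMSO and 0.378% ± 0.0022 under BRL-50481 (SD, n = 3), and the highest BRL-50481 library, at 0.380%, was below the lowest DMSO library, at 0.460%. Normalized counts are relative within a library, so the amount of mRNA per cell was not measured. Fewer cells of a kind and less mRNA per cell cannot be told apart in such bulk samples.

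**Figure D1:**
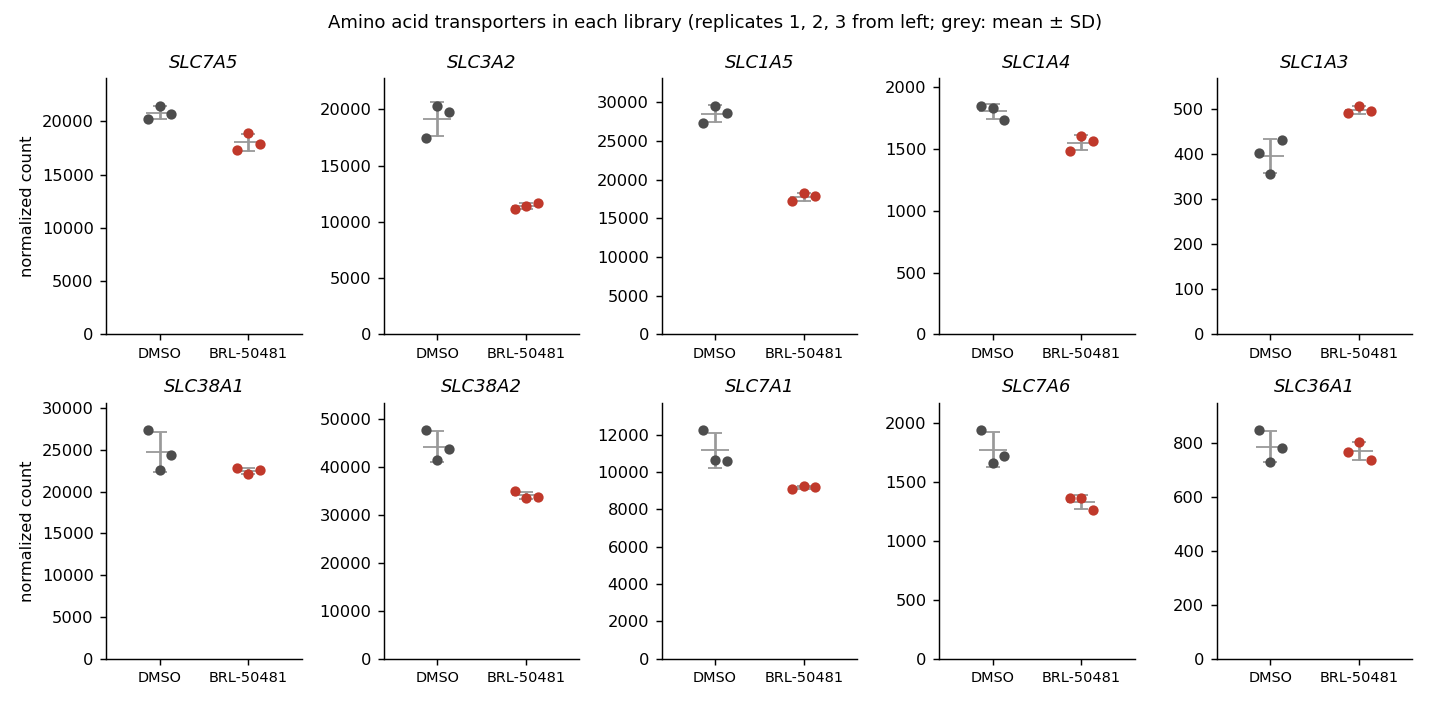
Normalized counts of the 10 transporters in each of the 6 libraries, with each axis starting at 0; grey bars are the mean and SD of the 3 libraries of a group. In SLC3A2 and SLC1A5 the BRL-50481 libraries lie farthest below the DMSO libraries, SLC1A3 lies above them, and in SLC38A1 and SLC36A1 the groups overlap.

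Between 30750573 and 33446984 reads fell on genes in a library, obtained by dividing each value by that of 1 read, and 100% of the values were whole multiples of it within 1e-06. The rarest transporter, SLC1A3, had 363 to 510 reads in a library, a counting error of at most 5.25%, and for the 6 most abundant it was at most 1.05%. DMSO replicate 1 stood farthest from its group, with a root mean square deviation of 0.142 on the log2 scale against 0.0792 to 0.119 in the other 5 libraries, and was the highest DMSO library for 6 of the 10 transporters. The coefficient of variation was larger in DMSO than in BRL-50481 for 8 of the 10. Of 6 genes that mark this mesenchymal line (VIM, CD44, AXL, CAV1, EGFR, MSN) all had mean counts of at least 9168, and all 6 rose (log2 fold changes 0.12 to 0.73), from a sum of 177856 to 179824 under DMSO to one of 239046 to 242202 under BRL-50481. Another 6 genes had been chosen as low or absent in this line. Of these, the oestrogen receptor gene ESR1 was not listed and PGR and CDH1 had means of 3.64 and 69.0. EPCAM, ERBB2 and KRT8 had 723, 1795 and 7118, so the choice did not hold for all of them, least of all for KRT8. CDH1 (1.39 on the log2 scale), KRT8 (0.25) and ERBB2 (0.19) rose and EPCAM fell (−0.16). Of 9 markers of blood, endothelial, liver and fibroblast cells, PTPRC, CD3E, VWF and ALB were not listed and the other 5 summed to 1398 to 1479 under DMSO and 1656 to 1880 under BRL-50481. Of these 5, PECAM1, COL1A2 and PDGFRB rose and CD14 and COL1A1 were not called. The part of these markers in the results was not tested.

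The chains of the leucine exchanger changed by unequal amounts. SLC3A2 (chr11:62856004-62888880, plus strand), the heavy chain, had normalized counts of 17423, 20317 and 19741 under DMSO and 11123, 11449 and 11701 under BRL-50481. Every BRL-50481 library was below every DMSO library, and the mean fell by 40.4%, the largest fall of the 10 (log2 fold change −0.74 ± 0.0569, SE, limma adjusted p = 2.27e-07). SLC7A5 (chr16:87830023-87869507, minus strand), the light chain for leucine and other large neutral amino acids, had 20231, 21441 and 20670 under DMSO and 17282, 18889 and 17907 under BRL-50481. The groups were again separate, and the mean fell by 13.3% (log2 fold change −0.21 ± 0.0475, limma adjusted p = 0.00224). After quantile normalization this value was −0.14, with an adjusted p of 0.0196. SLC7A5P2, a pseudogene copy of SLC7A5, was listed with a mean of 23.2 normalized counts over the 6 libraries, against 19404 for SLC7A5.

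SLC7A6 (chr16:68264516-68301823, plus strand), a light chain that exchanges cationic for neutral amino acids, was a much rarer transcript than SLC7A5 per kb. Its normalized counts were 1942, 1663 and 1724 under DMSO and 1366, 1362 and 1262 under BRL-50481. The groups were separate and the mean fell by 25.1% (log2 fold change −0.42 ± 0.0686, limma adjusted p = 0.000177). SLC7A6OS, a gene on the opposite strand whose exons overlap those of SLC7A6, also fell (log2 fold change −0.32 ± 0.0732, adjusted p = 0.00195). The libraries were made with strand marking and counted by strand.

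The balance between heavy and light chain was set out library by library. SLC3A2 counts divided by SLC7A5 counts were 0.861, 0.948 and 0.955 under DMSO and 0.644, 0.606 and 0.653 under BRL-50481. The lowest DMSO library was above the highest BRL-50481 library, and the exact two-sided permutation test gave p = 0.10, the smallest that 3 against 3 libraries allow. Per kb of canonical transcript the ratio was 2.23 ± 0.126 under DMSO and 1.53 ± 0.0604 under BRL-50481 (SD, n = 3). By this measure SLC3A2 was above SLC7A5 in both groups, whereas by counts it was below SLC7A5 in every library. The order thus rests on the canonical lengths, 1885 bases for SLC3A2 and 4556 for SLC7A5, and the transcript forms in use were not measured. The ratio of SLC3A2 to SLC7A6 was 10.9 ± 1.69 under DMSO and 8.61 ± 0.591 under BRL-50481 (SD), and these groups overlapped (exact permutation p = 0.20).

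**Figure D2:**
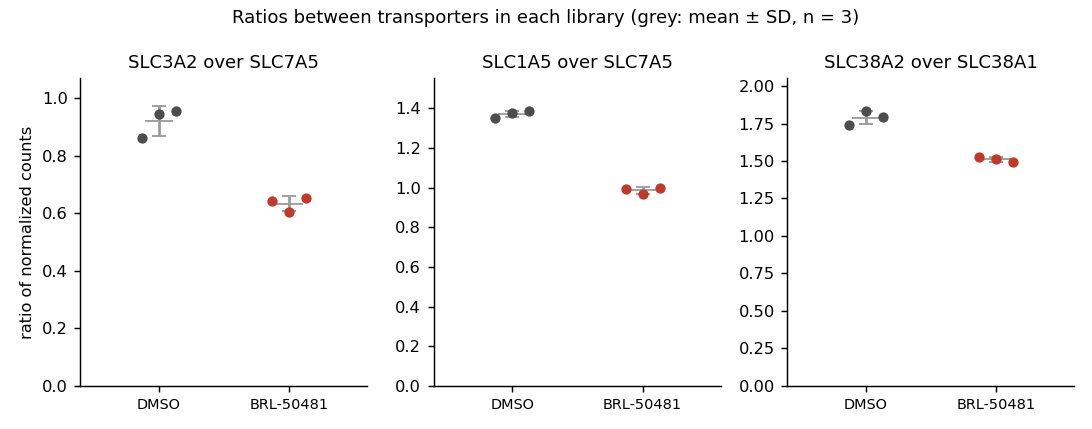
Ratios of the normalized counts of SLC3A2 to SLC7A5, SLC1A5 to SLC7A5 and SLC38A2 to SLC38A1 in each library, with axes starting at 0 and grey bars for the mean and SD of 3 libraries. These 3 ratios are lower in every BRL-50481 library than in any DMSO library.

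SLC1A5 and SLC1A4 are neutral amino acid exchangers of one family, SLC1A5 being the main glutamine carrier of many tumour cells. SLC1A5 (chr19:46774883-46788594, minus strand) had normalized counts of 27380, 29563 and 28634 under DMSO and 17203, 18269 and 17845 under BRL-50481. The distance between the groups was 9112 normalized counts from the lowest DMSO to the highest BRL-50481 library, and the mean fell by 37.7% (log2 fold change −0.68 ± 0.0463, limma adjusted p = 8.24e-08). The ratio of SLC1A5 to SLC7A5 went from 1.37 ± 0.0169 to 0.986 ± 0.0166 (SD, n = 3 per group, exact permutation p = 0.10).

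SLC1A4 (chr2:64988477-65023865, plus strand), which carries alanine, serine and cysteine, was much rarer per kb than SLC1A5. It had normalized counts of 1849, 1832 and 1731 under DMSO and 1485, 1604 and 1567 under BRL-50481. The groups were separate, and the mean fell by 14.0% (log2 fold change −0.22 ± 0.0581, limma adjusted p = 0.00585).

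SLC1A3 (chr5:36596588-36688334, plus strand), a glutamate and aspartate carrier of the same family, was the member that rose. Its normalized counts were 402, 356 and 431 under DMSO and 491, 507 and 494 under BRL-50481. All 3 BRL-50481 libraries were above the DMSO libraries, and the mean was 25.6% higher (log2 fold change 0.33 ± 0.0882, limma adjusted p = 0.00564). This is also the transporter with the fewest reads.

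The sodium-coupled glutamine and alanine carriers SLC38A1 and SLC38A2 lie close together on chromosome 12. SLC38A2 (chr12:46358188-46372773, minus strand), whose mRNA is known to respond to amino acid supply, had normalized counts of 47645, 41450 and 43631 under DMSO and 34884, 33569 and 33677 under BRL-50481. The groups were separate and the mean fell by 23.1% (log2 fold change −0.38 ± 0.0527, limma adjusted p = 4.42e-05). After quantile normalization the log2 fold change was −0.20 (adjusted p = 0.0109).

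SLC38A1 (chr12:46183063-46270017, minus strand) had normalized counts of 27344, 22636 and 24329 under DMSO and 22845, 22142 and 22533 under BRL-50481. DMSO replicate 2 was below BRL-50481 replicate 1, so the groups overlapped, and the gene was not called (log2 fold change −0.13, 95% interval −0.26 to −0.0039, limma adjusted p = 0.0719). The call turned on the setting. It was lower without DMSO replicate 2 (−0.20, adjusted p = 0.0063), with the replicate number as a block (adjusted p = 0.0381) and after correction for transcript length and GC content (−0.34, adjusted p = 5.64e-09), whereas quantile normalization gave −0.01. Without DMSO replicate 1 the value was −0.06. The ratio of SLC38A2 to SLC38A1 was 1.74, 1.83 and 1.79 under DMSO and 1.53, 1.52 and 1.49 under BRL-50481 (exact permutation p = 0.10), with no overlap between the groups.

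SLC7A1 (chr13:29509414-29595688, minus strand), the main carrier of arginine and lysine in many cells, had normalized counts of 12232, 10628 and 10601 under DMSO and 9106, 9260 and 9195 under BRL-50481. The groups were separate and the mean fell by 17.6% (log2 fold change −0.28 ± 0.0564, limma adjusted p = 0.000932). Corrected for transcript length and GC content, the log2 fold change was −0.45 (adjusted p = 1.67e-09). SLC36A1 (chr5:151437046-151492379, plus strand), a proton-coupled carrier of small neutral amino acids found on lysosomes, had 846, 730 and 781 under DMSO and 766, 804 and 736 under BRL-50481. These values overlapped, and the gene was not called (log2 fold change −0.03, 95% interval −0.19 to 0.13, limma adjusted p = 0.749). It was called lower after the correction for length and GC content (−0.17, adjusted p = 0.0193).

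Levels were compared between the transporters per kb of the canonical GENCODE transcript. In DMSO the order began with SLC3A2 (10165 ± 813 normalized counts per kb, SD, n = 3), SLC1A5 (9898 ± 380.0) and SLC38A2 (9227 ± 655), and the libraries of neighbours in this group overlapped. SLC7A5 followed at 4561 ± 134, SLC38A1 at 3059 ± 295 and SLC7A1 at 1519 ± 127. SLC1A4 (395 ± 14.0), SLC7A6 (284 ± 23.4), SLC36A1 (136 ± 10.1) and SLC1A3 (101 ± 9.71) were far below. From SLC38A2 down to SLC1A3, no library of one gene overlapped the libraries of the next.

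In BRL-50481, SLC38A2 was the highest (7100 ± 152 normalized counts per kb), above SLC1A5 (6167 ± 186) and SLC3A2 (6061 ± 154) in every library. SLC1A5 and SLC3A2 overlapped. The next 6 places were in the same order as in DMSO, from SLC7A5 (3957 ± 178) to SLC36A1 (133 ± 5.91). SLC1A3 was still the last at 127 ± 2.08, but its libraries now overlapped those of SLC36A1.

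**Figure D3:**
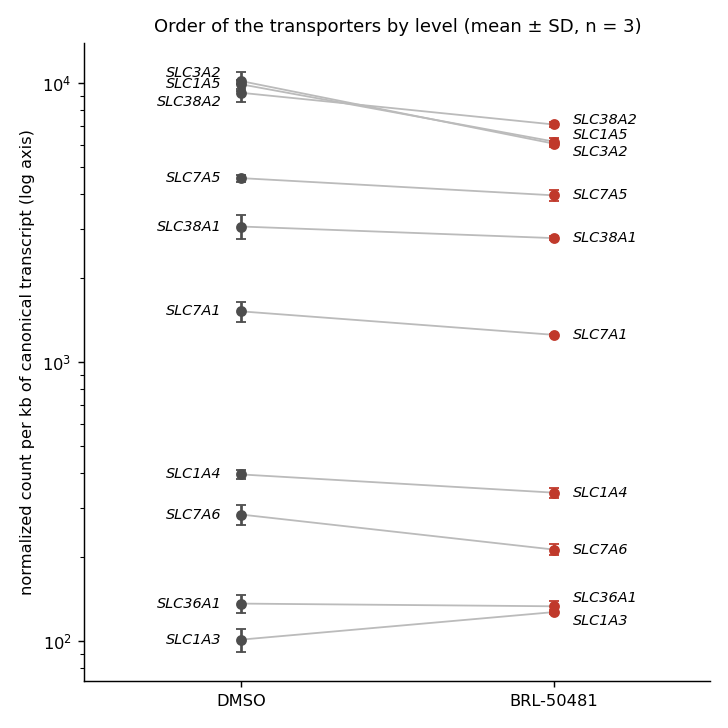
Normalized count per kb of canonical transcript (log axis) of the 10 transporters in DMSO and BRL-50481, mean and SD of 3 libraries, with lines joining a gene. SLC3A2, SLC1A5 and SLC38A2 overlap at the top of the DMSO order, and in BRL-50481 SLC38A2 lies above both SLC1A5 and SLC3A2. SLC1A3 rises to the level of SLC36A1.

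Other amino acid transporters were taken from a list of 43, of which 26 were in the table and 25 were tested. In this list 4 were higher, 6 lower and 15 not called, with a median log2 fold change of 0.02. The shares over all genes were 28.9% higher and 29.8% lower. SLC7A2, a second cationic amino acid carrier, had normalized counts of 3057, 2335 and 2500.5 under DMSO and 1445, 1414 and 1436 under BRL-50481, and so fell more than SLC7A1 (log2 fold change −0.87 ± 0.0826, limma adjusted p = 1.51e-06). SLC43A1, a carrier of large neutral amino acids that needs no heavy chain, fell from 1702 ± 61.2 to 1274 ± 63.8 (SD; log2 fold change −0.42). CTNS, the cystine exporter of lysosomes, fell from 1131 ± 26.9 to 753.6 ± 50.1 (log2 fold change −0.59).

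SLC7A7, a further light chain that pairs with SLC3A2 and exchanges cationic for neutral amino acids, rose. It had 65.5, 66.6 and 65.4 normalized counts under DMSO and 198, 194 and 223 under BRL-50481 (log2 fold change 1.62 ± 0.128, limma adjusted p = 3.04e-07). SLC38A6 rose from 206 ± 21.4 to 278 ± 29.2 (SD; log2 fold change 0.43). The largest change of the list was in SLC6A14, a broad neutral and cationic amino acid carrier, but at 3.9 to 7.9 normalized counts under DMSO and 28.1 to 39.3 under BRL-50481 it was a rare transcript in both groups (log2 fold change 2.44).

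SLC7A11, the light chain for cystine that also pairs with SLC3A2, was not called. It had 6770, 4917 and 5112 normalized counts under DMSO and 6392, 5863 and 5915 under BRL-50481 (log2 fold change 0.13 ± 0.0943, limma adjusted p = 0.265). DMSO replicate 1 was above all BRL-50481 libraries and the other DMSO libraries below them, and without that library the log2 fold change was 0.27 (adjusted p = 2.76e-07). With the correction for length and GC content it was −0.11 (adjusted p = 0.0217), so its direction turned with the setting. SLC6A6, SLC6A9, SLC38A7, SLC38A9, SLC38A10, SLC43A2, SLC66A1, MFSD12 and SLC1A1 were not called either, with log2 fold changes from −0.14 to 0.14. Among these is SLC38A9, the arginine sensor of the lysosome (−0.02, 95% interval −0.17 to 0.13).

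**Figure D4:**
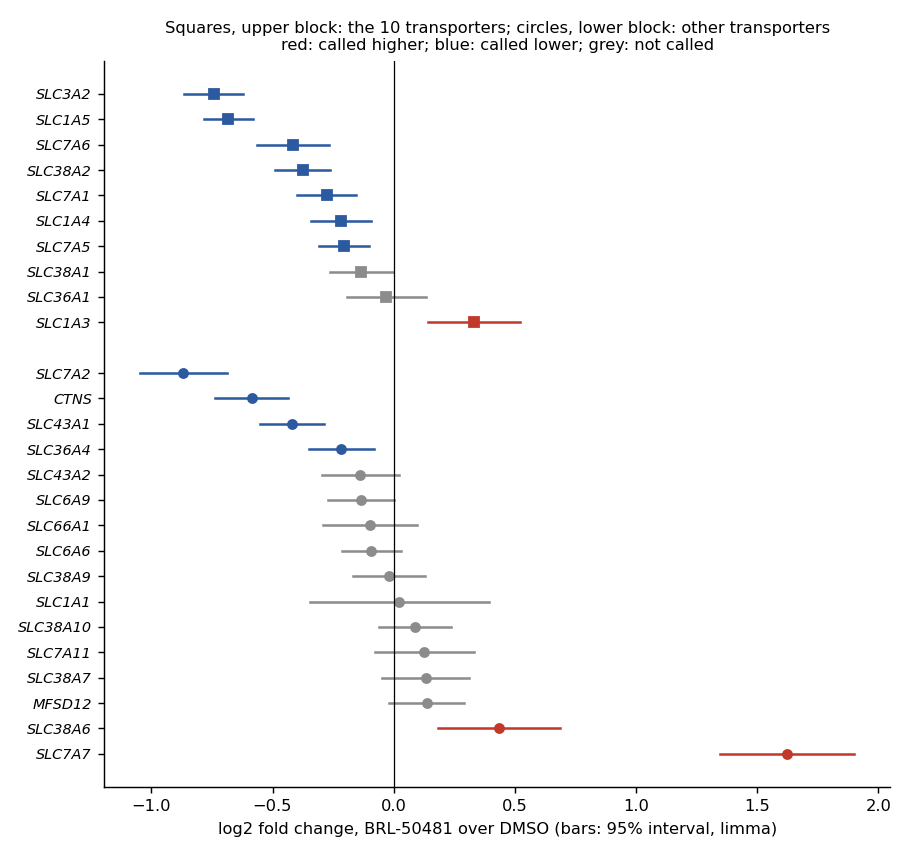
Log2 fold change of BRL-50481 over DMSO with 95% intervals for the 10 transporters (squares) and for the other amino acid transporters whose mean over the libraries was at least 100 normalized counts (circles), red for higher, blue for lower and grey for not called. The 10 run from −0.74 for SLC3A2 to 0.33 for SLC1A3, and among the others SLC7A2 and SLC7A7 lie at the ends.

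Of 36 genes that sense amino acids for mTORC1, 7 were higher, 13 lower and 16 not called (median log2 fold change 0.02). Of all genes tested, 28.9% were higher and 29.8% lower, so calls in both directions were common beyond this list. SESN2, a leucine sensor that holds mTORC1 back, rose from 1107 ± 26.8 to 1888 ± 82.8 normalized counts (SD; log2 fold change 0.77, limma adjusted p = 2.36e-07). The arginine sensors CASTOR1 and CASTOR2, listed under the older names GATSL3 and GATSL2, moved in opposite directions (0.67 and −0.80 on the log2 scale). Of the lysosomal Rag and Ragulator genes, RRAGA, RRAGC, RRAGD, LAMTOR2, LAMTOR3, LAMTOR4 and LAMTOR5 fell, with log2 fold changes from −0.22 to −0.47, and RRAGB and LAMTOR1 were not called. RHEB, the activator of mTORC1, was not called (0.00, 95% interval −0.12 to 0.11).

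Enzymes that use or make amino acids were higher in 8, lower in 11 and not called in 8 of 27 tested (median log2 fold change −0.02). Over all genes, 28.9% were higher and 29.8% lower. ASNS, which makes asparagine from glutamine, fell from 27417 ± 889 to 15105 ± 64.7 normalized counts (SD; log2 fold change −0.86, limma adjusted p = 7.10e-09). ASS1, an enzyme of arginine synthesis, fell from 4749 ± 217 to 1926 ± 44.8 (log2 fold change −1.30). GLUL, which makes glutamine, fell (−0.61). BCAT1, the first enzyme of leucine breakdown, was higher (0.29), though not after the correction for length and GC content (0.06, adjusted p = 0.0923), and BCKDHA and BCKDHB, of the next step, were higher as well (0.34 and 0.64). DBT, also of that step, and BCAT2, the mitochondrial counterpart of BCAT1, were not called (0.00 and 0.15).

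The amino acid response list held 29 genes, of which 6 were higher, 14 lower and 9 not called (median log2 fold change −0.16). For all genes the shares were 28.9% higher and 29.8% lower. ATF4 mRNA fell from 12259 ± 847 to 9587 ± 164 normalized counts (SD; log2 fold change −0.35, limma adjusted p = 8.41e-05). The level of the ATF4 protein was not measured. MYC, the E-box factor, fell from 27641 ± 1435 to 12291 ± 177 (log2 fold change −1.17, adjusted p = 1.63e-09). Genes of the list, not all of them ATF4 targets, did not all move together, but more fell than rose. ATF3 (−1.02), CHAC1 (−0.96) and ASNS fell. So did PSAT1 (−0.79), NUPR1 (−0.81), PPP1R15A (−0.72), PPP1R15B, VLDLR, EIF4EBP1, EIF2S1, DDIT3 and MTHFD2. TRIB3 (0.75), SESN2 and SHMT2 (0.27) rose, and the remaining genes called higher were the kinase genes EIF2AK1, EIF2AK2 and EIF2AK4. Not called were ATF5, CEBPB, CEBPG, DDIT4, STC2, PHGDH, PSPH, EIF2AK3 and SLC7A11, with log2 fold changes from −0.24 (STC2) to 0.13 (SLC7A11). Among the 6 transporters with the letters TGATGNAA in a promoter window, SLC3A2, SLC1A5, SLC1A4 and SLC7A1 fell, SLC1A3 rose and SLC38A1 was not called. Of the 4 without them in their windows, SLC7A5, SLC38A2 and SLC7A6 fell and SLC36A1 was not called. Of the 3 with an E-box in a window, SLC1A5 and SLC7A5 fell and SLC36A1 was not called, and 5 of the 7 without one fell. Sequence outside the windows was not searched, so a gene without a match there may hold one elsewhere. PDE7A itself, the target of the inhibitor, fell (log2 fold change −0.45 ± 0.103, limma adjusted p = 0.00199), which is no check of the treatment because the drug acts on the protein.

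**Figure D5:**
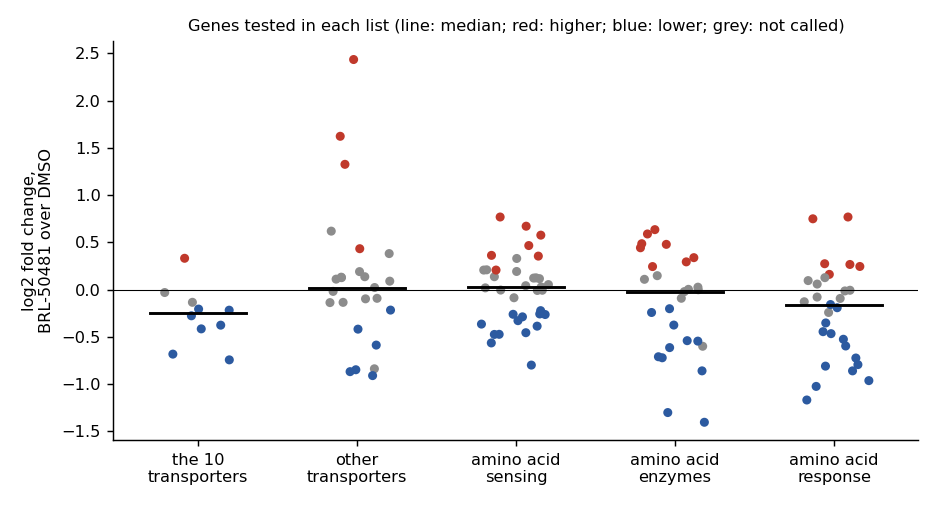
Log2 fold change of BRL-50481 over DMSO of each gene tested in 5 lists, 1 point per gene, with a line at the list's median (red higher, blue lower, grey not called). The medians are −0.25 for the 10 transporters, 0.02 for other transporters, 0.02 for sensing genes, −0.02 for enzymes and −0.16 for response genes, and each list holds genes in both directions.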

How the data were processed

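RNA of MDA-MB-231 cells was sequenced in 6 libraries, 3 per group, grouped by their titles. Per the labels and the Methods, the authors mapped 76-base reads from one end of each fragment to the hg38 build (STAR 2.7.1a), counted them by strand over UCSC genes (HTSeq) and scaled the counts with DESeq2 1.28. The deposited signal is the authors' read count per gene divided by the library's size factor. The deposited table also holds the authors' own comparison (a mean, log2 fold changes with errors, test statistics and p-values), which was not used. The labels differ on RNA selection (oligo-dT or ribosomal depletion).

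Here, log2(signal + 1) was tested with limma 3.58.1 (lmFit, eBayes with a trend, R 4.3.3) for genes with at least 4 in at least 3 libraries. This left out 405 genes, and calls used a Benjamini-Hochberg adjusted p under 0.05 over 15246. Single ratios had exact permutation tests. The members and lists were chosen with earlier results of these data known. Named genes are the 10 transporters, every other transporter with a mean of at least 100, and some chosen by rank from the other lists. The ranks were the 3 most abundant genes and the 2 largest changes each way, and not every such gene is described. Others were named for their role after their values were seen. Positions, overlaps and lengths are from GENCODE release 44 and promoters from RefSeq (all 10 genes matched). The procedure was tested on simulated data. Some genes are not reported here. Depth was 30750573 to 33446984 reads on genes per library, and intervals rest on the 3 libraries per group. Alternatives were 2 pseudocounts, 2 filters, 2 scalings, no trend, the replicate block, leaving out each library, and a correction for length and GC content added after the data had been seen. Python 3.11.15, numpy 2.4.6, pandas 2.3.3 and matplotlib 3.10.9 were used.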

Additional observations from a re-analysis of the deposited data

How the results depend on the processing

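The counts of transporters called were recomputed in 15 alternatives. Of the 10 transporters, 1 was higher in every alternative and 7 to 9 were lower, the added calls being SLC38A1 and SLC36A1. The 8 called transporters kept their direction and call in all 15. The other transporters called higher went from 4 to 2 under a stricter filter, a mean of 20 normalized counts. That filter left SLC1A7 (mean 14.8) and SLC6A14 (mean 18.8) untested. Those called lower went from 6 to 10 with the correction for length and GC content. Sensing genes called higher were 6 to 11 when single libraries were left out, against 7, with 11 without DMSO replicate 1. Apart from the filter, the cause of these shifts was not tested. The log2 ratio of SLC3A2 to SLC7A5 changed by −0.45 to −0.59, that of SLC1A5 to SLC7A5 by −0.40 to −0.49 and that of SLC38A2 to SLC38A1 by −0.15 to −0.26. SLC36A4 was called lower (−0.22), but not after quantile normalization (adjusted p = 0.0518) or without BRL-50481 replicate 2 (adjusted p = 0.0554). Calls were gained by SLC43A2 (adjusted p = 0.0444) without DMSO replicate 1, by MFSD12 (0.0217) without DMSO replicate 2, and by SLC6A6, SLC6A9, SLC43A2 and MFSD12 with the correction for length and GC content. SLC7A11, not called at 0.13, turned to −0.1127 (adjusted p = 0.0217) with that correction. Other genes that were not called changed sign without being called. Quantile normalization gave 0.0045 for SLC36A1, −0.1108 for SLC1A1, 0.0057 for SLC38A9 and 0.0473 for RHEB. Median centring gave 0.0118 for SLC38A9 and 0.0259 for RHEB, and the length and GC correction −0.0476 for SLC1A1, 0.0067 for RHEB and 0.1118 for SLC7A5P2. Without single libraries the values ran from −0.0824 to 0.0243 for SLC36A1, −0.1203 to 0.2146 for SLC1A1, −0.051 to 0.0055 for SLC38A9, −0.0492 to 0.0349 for RHEB and −0.245 to 0.114 for SLC7A5P2. Over all genes, 4400 were higher and 4546 lower, and with the length and GC correction 4189 and 5517.

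The labels give both groups replicate numbers 1 to 3. The deviations of same-numbered libraries correlated at 0.121, 0.104 and 0.0514, and those of differently numbered libraries at −0.159 to 0.0607. For each DMSO replicate the same-numbered BRL-50481 library correlated best. BRL-50481 replicate 3, however, correlated slightly better with DMSO replicate 2 (0.0607) than with DMSO replicate 3. These low values do not settle whether the numbers mark pairs. The main test took no pairs, and the replicate block was an alternative. With the replicate block, 8 of the 10 transporters were lower, SLC38A1 being added, and 1 higher. Count-based tests of the recovered reads were planned and not run, and library weights were tried but their estimate did not converge. The precision rests on 3 libraries per group, and the sample tag gives another dose and time than the treatment protocol and the study.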
